A study of Mus musculus with 2 samples.

Results

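D cyclins and CDK inhibitors set the brake and the accelerator of the G1 phase. Their transcripts were read here in primary chondrocyte cultures, 1 of each genotype, control and *Myl3*-KO. The 10 genes were taken by symbol from the expression table: the D cyclins *Ccnd1*, *Ccnd2* and *Ccnd3*, the CIP/KIP inhibitors *Cdkn1a*, *Cdkn1b* and *Cdkn1c*, and the INK4 inhibitors *Cdkn2a*, *Cdkn2b*, *Cdkn2c* and *Cdkn2d*. All 10 were found, of 22156 genes in the table, and all 10 passed the filter of at least 10 counts over both libraries, which 12431 genes passed.

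D cyclins bind and activate the kinases Cdk4 and Cdk6, which phosphorylate the retinoblastoma protein and its relatives, so that E2F factors are released and S phase genes are transcribed. INK4 proteins bind Cdk4 and Cdk6 directly, whereas CIP/KIP proteins bind whole cyclin-kinase complexes, above all those of Cdk2. The *Cdkn2a* locus encodes p16Ink4a and, from another first exon and another reading frame, Arf, which stabilises p53. p16 and the p53 target p21 are widely used marks of senescence, also in cartilage.

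Both cultures came from rib cartilage per the labels, and the study's methods add articular cartilage and newborn mice as the source. *Myl3*-KO mice carried *Col2a1-Cre* with *Myl3* flox/flox, which places the deletion in cells that have used the *Col2a1* promoter. Control mice were called WT in the labels, whereas the study describes control littermates as carrying *Myl3* flox/flox. Cells of both genotypes grew as a monolayer with 10% FBS and no treatment, and whether animals were pooled was not given in the sources used here.

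With 1 library per genotype there was no replicate check, so each test below compares reads of these 2 libraries and not the genotypes. Intervals and floors cover counting error only. The libraries held 17612435 (control) and 13477977 (*Myl3*-KO) counts. *Myl3* had 0 counts in both, so the genotype labels could not be checked on the targeted gene. Of 14 chondrocyte markers 5 were at 0 in both libraries (*Acan*, *Matn1*, *Matn3*, *Hapln1* and *Cnmd*), *Col2a1* had 30 and 27 counts and *Sox9*, the transcription factor of the lineage, 866 and 480. *Col11a2*, a cartilage collagen gene, went the other way, from 293 counts to 395, and of 6 markers tested 1 was higher (*Col11a2*) and 1 lower (*Sox9*) in the read test described below. The chondrocyte list summed to 75.9 CPM (counts per 1000000 reads) in control and 76.9 CPM in *Myl3*-KO chondrocytes. Of 8 fibroblast markers tested 4 were higher, among them *Pdgfra* (6.81 CPM to 10.4), *Prrx1* (1401 CPM to 1646) and *Col1a2*. The 3 lower included *Dcn* (631 counts to 155) and *Lum* (272 to 81), genes of small matrix proteoglycans. The 9 fibroblast markers, with *Thy1* at 0 counts in both libraries, summed to 16860 and 19180 CPM. Most of it was *Col1a2*, a collagen I gene with 211652 and 189213 counts, or 12020 and 14040 CPM. So the chondrocyte label was not borne out by these defining markers. The names control chondrocytes and *Myl3*-KO chondrocytes are kept here as labels of the 2 samples, not as a finding of cell type. Of 12 muscle markers 10 had under 3 counts in both libraries and *Cdh15*, which muscle stem cells express, went from 73 counts to 290, so that the list summed to 4.49 CPM in control and 21.8 CPM in *Myl3*-KO chondrocytes. In a bulk culture fewer cells of a type and less RNA per cell cannot be told apart, and the part of other cells in the values below was not tested.

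The INK4 gene *Cdkn2a* had the highest level of the 10 genes in both libraries, and *Ccnd2* the lowest. Levels are given as FPKM, fragments per kilobase of transcript per 1000000 reads, the scale on which genes of different length can be compared, with a 95% Poisson interval of the count. In control chondrocytes the order was *Cdkn2a*, *Cdkn2b*, *Cdkn1b*, *Cdkn2c*, *Ccnd3*, *Cdkn2d*, *Cdkn1c*, *Ccnd1*, *Cdkn1a* and *Ccnd2*. The counting intervals of *Cdkn1c* and *Ccnd1* overlapped, and those of the other neighbours did not. In *Myl3*-KO chondrocytes the first 6 genes kept this order, *Ccnd1* stood above *Cdkn1c* with overlapping intervals, and *Cdkn1a* and *Ccnd2* overlapped as well.

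**Figure D1:**
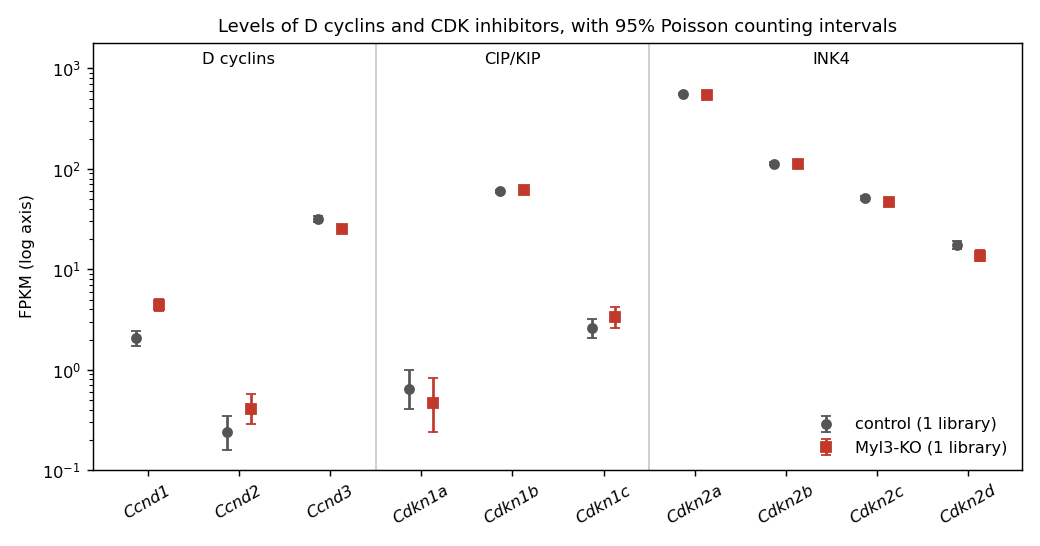
FPKM on a log axis for the 10 genes in control chondrocytes (grey circles) and *Myl3*-KO chondrocytes (red squares), 1 library each, with 95% Poisson counting intervals as bars. *Cdkn2a* stands at 554.3 and 538 FPKM at the top and *Ccnd2* at 0.24 and 0.41 FPKM at the bottom, and the *Ccnd1* intervals of the 2 libraries lie apart.

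Differences are given as the log2 ratio of CPM, *Myl3*-KO over control, with a 95% Clopper-Pearson interval. Of the 10 genes 2 (*Ccnd1* and *Ccnd2*) were higher by at least 1.5-fold, a size that 6.17% of all genes tested reached. None of the 10 was lower by at least 1.5-fold, against 2.90% of all genes. In the read test, a two-sided exact binomial test with Benjamini-Hochberg adjustment over 12431 genes, 1 of the 10 was higher (*Ccnd1*), against 18.6% of all genes. In that test 3 were lower (*Ccnd3*, *Cdkn2c* and *Cdkn2d*), against 16.8% of all genes. The median log2 ratio of the 10 genes was -0.02, with 4 above 0 and 6 below, and the median of all genes tested was 0.02.

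**Figure D2:**
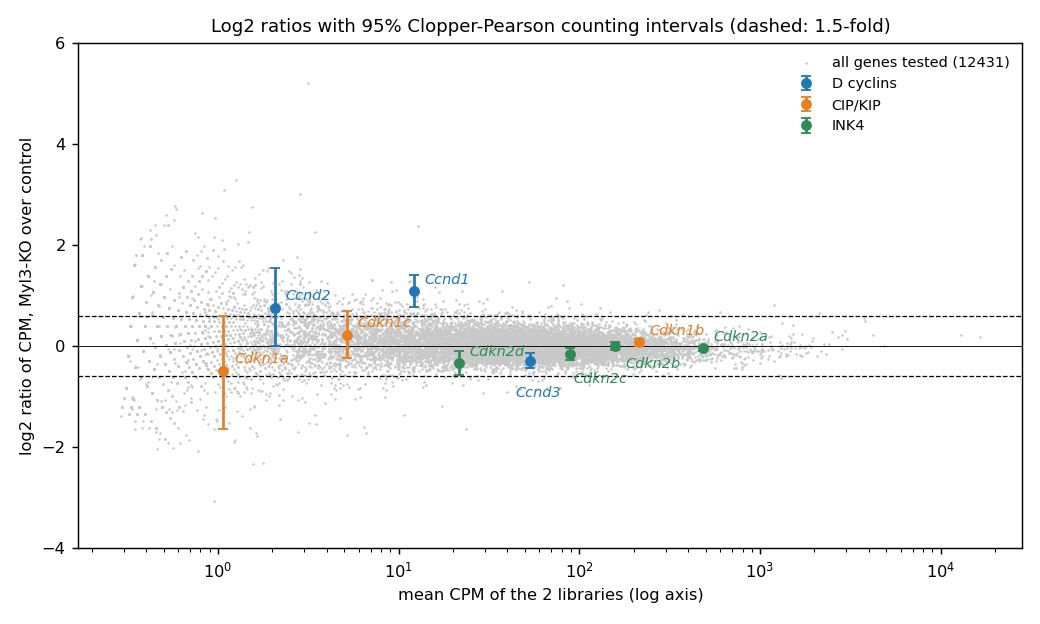
Log2 ratio of CPM, *Myl3*-KO over control, against the mean CPM of the 2 libraries on a log axis, with all 12431 genes tested in grey, the 10 genes in colour by family and 95% Clopper-Pearson counting intervals as bars; dashed lines mark 1.5-fold. *Ccnd1* at 1.09 lies above the upper line with its whole interval, and the INK4 genes lie between -0.34 and -0.0049.

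Among the D cyclins, *Ccnd1* was higher in *Myl3*-KO chondrocytes and *Ccnd3* was lower. *Ccnd1* (ENSMUSG00000070348, chr7:144929931-144939925, minus strand, GRCm38), the cyclin best known as a target of mitogen signalling, had 136.14 counts and 2.07 FPKM (interval 1.73 to 2.45) in control chondrocytes. In *Myl3*-KO chondrocytes it had 221.72 counts and 4.40 FPKM (3.85 to 5.02). The ratio was 2.13-fold, or 1.09 on the log2 scale (0.78 to 1.41), with an exact binomial p of 1.6e-12 and an adjusted p of 3.36e-11.

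The *Ccnd1* ratio was far out among genes of its level. Of 12431 genes tested, 221 others had a ratio at least as high, and of the 2560 within 2-fold of its mean CPM, 9 had. The value rests in part on how reads were divided between neighbours. *Ccnd1* overlaps LTO1 (ENSMUSG00000031072) on the opposite strand, and 16.9% of the 31-base words of its annotated transcripts also occur in LTO1. LTO1 had 297.86 and 270.28 counts, with a log2 ratio of 0.25 (0.00067 to 0.49). The counts of the pair added up to whole numbers, 434 in control and 492 in *Myl3*-KO chondrocytes. Summed, the pair was higher by 0.57 on the log2 scale (0.38 to 0.76), which is short of the 1.5-fold limit of 0.585. Fractional counts that add up to whole numbers mean that reads were divided between these 2 genes on opposite strands. The counts of *Ccnd3* and *Bysl*, also on opposite strands, added up to whole numbers as well, 1697 and 1096. The strand setting itself was not given in the sources used here, and the share of *Ccnd1* in the pair is uncertain.

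*Ccnd2* (ENSMUSG00000000184, chr6:127125162-127152193, minus strand), a D cyclin of proliferating progenitor cells, was the gene with the lowest level. It had 27 counts and 0.24 FPKM (0.158 to 0.349) in control and 35 counts and 0.41 FPKM (0.286 to 0.57) in *Myl3*-KO chondrocytes. The log2 ratio was 0.76 (-0.01 to 1.54), with an exact binomial p of 0.0405 and an adjusted p of 0.0991. So at this depth a difference could not be told from counting error. *Ccnd2* overlaps Gm43126 and 9330179D12Rik on the opposite strand, which share 3.65% and 1.73% of its 31-base words and were not counted.

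*Ccnd3* (ENSMUSG00000034165, chr17:47505051-47599691, plus strand) was the main D cyclin of both cultures. It had 1030.96 counts and 31.71 FPKM (29.8 to 33.7) in control and 645.21 counts and 25.31 FPKM (23.4 to 27.3) in *Myl3*-KO chondrocytes. On the log2 scale its ratio was -0.29 (-0.43 to -0.15), a ratio of 0.818, with an exact binomial p of 5.81e-05 and an adjusted p of 0.000366. *Ccnd3* overlaps *Bysl*, a gene of ribosome assembly, on the opposite strand, with 3.61% of its words shared. Summed with *Bysl* the counts were 1697 and 1096, and the log2 ratio was -0.24 (-0.36 to -0.13).

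*Ccnd3* gave 93.2% of D cyclin FPKM in control and 84.0% in *Myl3*-KO chondrocytes, while the part of *Ccnd1* went from 6.09% to 14.6% and that of *Ccnd2* from 0.706% to 1.36%. The D cyclins together were at 34.02 FPKM in control and 30.12 FPKM in *Myl3*-KO chondrocytes. Compared within the libraries, which removes the library total from the comparison, the *Ccnd1* ratio was 2.61 times the *Ccnd3* ratio (95% interval 2.05 to 3.33) and the *Ccnd2* ratio was 2.07 times the *Ccnd3* ratio (1.21 to 3.60). *Ccnd1* and *Ccnd2* could not be told apart, at 1.26 (0.699 to 2.25). These intervals are exact conditional intervals, unadjusted for the 12 pairs within families. They and the shares take the *Ccnd1* counts as divided from LTO1, which is uncertain. With the overlapping partners summed, the log2 ratios were 0.57 for *Ccnd1* with LTO1 and -0.24 for *Ccnd3* with *Bysl*, which are nearer each other.

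None of the CIP/KIP inhibitors passed the read test in either direction. *Cdkn1b* (ENSMUSG00000003031, chr6:134920401-134925513, plus strand) encodes p27, which holds Cdk2 complexes in resting cells. It had 3660 counts and 59.48 FPKM (57.6 to 61.4) in control and 2937 counts and 61.99 FPKM (59.8 to 64.3) in *Myl3*-KO chondrocytes. Its log2 ratio was 0.07 (-0.002 to 0.14), with an exact binomial p of 0.0557 and an adjusted p of 0.127. *Cdkn1b* held 94.8% of CIP/KIP FPKM in control and 94.2% in *Myl3*-KO chondrocytes.

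*Cdkn1a* (ENSMUSG00000023067, chr17:29090976-29100727, plus strand), which encodes p21, was near the bottom of the range. It had 22 counts and 0.65 FPKM (0.407 to 0.984) in control and 12 counts and 0.47 FPKM (0.243 to 0.821) in *Myl3*-KO chondrocytes. Its log2 ratio came to -0.49 with a wide interval (-1.64 to 0.59), an exact binomial p of 0.39 and an adjusted p of 0.558. These counts leave room for a ratio of either sign. *Cdkn1a* overlaps AC167363.2 on the opposite strand, which shares 6.88% of its 31-base words and was not counted.

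*Cdkn1c* (ENSMUSG00000037664, chr7:143458339-143461050, minus strand) encodes p57, an imprinted inhibitor needed for growth plate chondrocytes to leave the cell cycle. It had 84 counts and 2.61 FPKM (2.08 to 3.23) in control and 75 counts and 3.33 FPKM (2.62 to 4.17) in *Myl3*-KO chondrocytes. The log2 ratio was 0.22 (-0.25 to 0.69), with an exact binomial p of 0.338 and an adjusted p of 0.503. *Cdkn1c* overlaps Gm44732 on the opposite strand, with 27.2% of its 31-base words shared. Gm44732 was not counted, so the pair could not be summed. Of the 3 pairs of CIP/KIP genes, 0 had a ratio whose interval left out 1.

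All 4 INK4 genes had ratios below 0, as did 5878 of the 12431 genes tested, and their median log2 ratio was -0.10. Of the 4, 2 (*Cdkn2c* and *Cdkn2d*) passed the read test downward, against 16.8% of all genes. The intervals of *Cdkn2a* and *Cdkn2b* held 0. *Cdkn2a* (ENSMUSG00000044303, chr4:89274471-89294653, minus strand) had rank 118 by FPKM among the 22156 genes in both libraries. It had 8647 counts and 554.3 FPKM (543 to 566) in control and 6417 counts and 538 FPKM (525 to 551) in *Myl3*-KO chondrocytes. On the log2 scale its ratio was -0.04 (-0.09 to 0.00245), with an exact binomial p of 0.0632 and an adjusted p of 0.14. With TMM scaling the log2 ratio was -0.06 and the adjusted p 0.0281, so the call, but not the direction, turned on the scaling.

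A gene-level *Cdkn2a* count adds the Ink4a and Arf transcripts, which start at different first exons and share the next one. In GENCODE M21 (GRCm38) the first exon of Cdkn2a-202, the Arf transcript, lies at chr4:89294334-89294653, and that of Cdkn2a-201, the Ink4a transcript, at chr4:89281986-89282192, with 12141 bases between them. Both are spliced to the same second exon at chr4:89276645-89276985. The annotated last exons differ too, with 304 bases in Cdkn2a-201 and 234 in Cdkn2a-202, so the transcript lengths depend on these ends as well. Reads that reach across the junction of the first 2 exons or into a first exon tell the transcripts apart. The last 15 bases of each first exon (lower case) and the first 15 of the shared exon (capitals) are shown.
Cdkn2a-201: cgtaccccgattcagGTGATGATGATGGGC
Cdkn2a-202: ggaatcctggaccagGTGATGATGATGGGC
The coding part of the first exon was 126 bases in Cdkn2a-201, a multiple of 3, and 190 bases in Cdkn2a-202, 1 more than a multiple of 3, so the shared exon is read in different frames.

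The table holds no transcript counts, but its FPKM values carry the length by which each count was divided. Among 93 genes with 1 annotated transcript and at least 50 FPKM, count and FPKM gave back the annotated length within 0.1% in both libraries for 78. The neighbouring gene *Cdkn2b*, with 1 annotated transcript of 1390 bases, was outside that limit, with 1393 bases implied in both libraries. So the length error at this locus may be larger than 0.1%. For *Cdkn2a* the implied length was 885.73 bases in control and 884.91 in *Myl3*-KO chondrocytes, between the 852 bases of Cdkn2a-201 and the 895 bases of Cdkn2a-202. If these were the only transcripts counted, with their ends as annotated, the Arf transcript made up 78.4% in control and 76.5% in *Myl3*-KO chondrocytes. That corresponds to 434.8 and 411.8 FPKM for Arf and to 119.5 and 126.2 FPKM for Ink4a. A length error of 0.1% moves these shares by 2.1 percentage points, more than the difference between the libraries. The annotation behind the table was not given in the sources used here, and the split was computed after the values were seen and has no test.

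**Figure D3:**
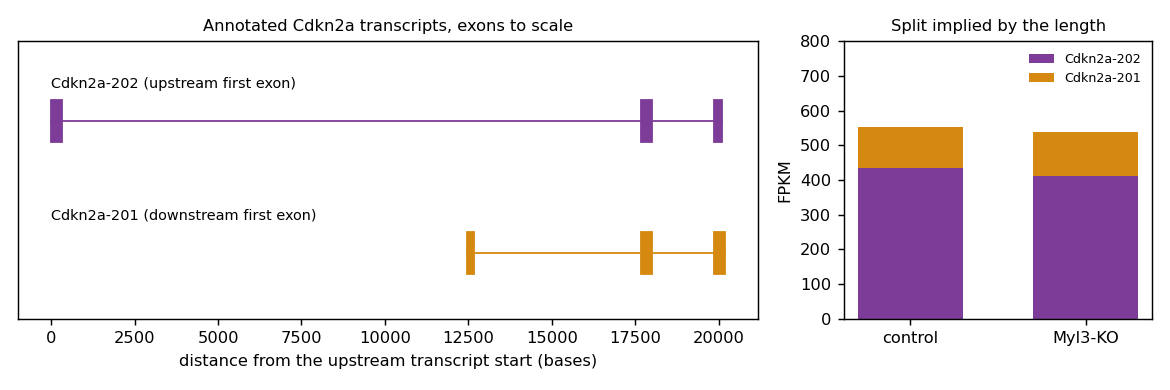
Left, exons of the Arf transcript Cdkn2a-202 and the Ink4a transcript Cdkn2a-201 to scale, by distance in bases from the upstream transcript start; right, *Cdkn2a* FPKM of each library (bars from 0) split by the implied transcript length, with no error bar. The Arf part is the larger in both bars, at 434.8 FPKM in control and 411.8 FPKM in *Myl3*-KO chondrocytes.

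The 2 first exons have promoters of their own, shown because they are where the Ink4a and Arf transcripts part. Each window (RefSeq, GRCm38.p6, minus strand) runs from 250 bases before the start to 50 after it, and matches on either strand to 5 motifs are in capitals: the RBPJ core TGGGAA, AP-1 TGACTCA, CRE TGACGTCA, E2F (TTTCGCGC, TTTGGCGC or TTTCCCGC) and SP1 GGGCGG.
Ink4a promoter, chr4:89282143-89282442: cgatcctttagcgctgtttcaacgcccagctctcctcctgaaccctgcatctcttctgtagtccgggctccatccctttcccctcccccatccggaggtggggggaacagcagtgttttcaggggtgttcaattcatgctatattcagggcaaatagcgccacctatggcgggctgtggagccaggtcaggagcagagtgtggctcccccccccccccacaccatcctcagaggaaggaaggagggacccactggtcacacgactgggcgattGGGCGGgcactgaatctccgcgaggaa
Arf promoter, chr4:89294570-89294869: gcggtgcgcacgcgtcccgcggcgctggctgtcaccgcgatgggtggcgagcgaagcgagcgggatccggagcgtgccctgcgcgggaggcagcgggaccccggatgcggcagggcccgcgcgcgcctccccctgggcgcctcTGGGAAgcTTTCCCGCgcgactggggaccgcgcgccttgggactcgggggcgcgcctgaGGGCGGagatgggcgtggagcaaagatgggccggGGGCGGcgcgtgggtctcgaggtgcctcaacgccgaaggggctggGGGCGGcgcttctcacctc
The Ink4a window held 1 SP1 match, at 60.3% GC. The Arf window held 1 RBPJ core, 1 E2F and 3 SP1 matches, at 77% GC. Of all 32851 promoters of that length 25.6% held the RBPJ core, 1.84% an E2F motif, 35.7% SP1, 5.2% AP-1 and 1.79% CRE. Promoters were found for 7 of the 10 genes, in 11 windows, and not for *Ccnd1*, *Ccnd2* or *Cdkn1c*. Windows had been planned for the genes past 1.5-fold, *Ccnd1* and *Ccnd2*, so the planned ones are missing. The RBPJ core also occurred in 1 of the *Cdkn1a* windows and in that of *Cdkn2d*, and the CRE motif in that of *Cdkn2b*. SP1 matches also occurred in windows of *Ccnd3*, *Cdkn1a*, *Cdkn1b*, *Cdkn2b*, *Cdkn2c* and *Cdkn2d*. These matches are a description of letters and were not read together with the ratios.

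*Cdkn2b* (ENSMUSG00000073802, chr4:89306299-89311039, minus strand), the neighbour of *Cdkn2a*, encodes p15, known as a target of TGF-beta. It had 2768 counts and 112.82 FPKM (109 to 117) in control and 2111 counts and 112.44 FPKM (108 to 117) in *Myl3*-KO chondrocytes. Its log2 ratio came to -0.0049 (-0.09 to 0.08), with an exact binomial p of 0.908 and an adjusted p of 0.961. The *Cdkn2a* and *Cdkn2b* ratios could not be told apart, at 0.973 of each other (0.911 to 1.04).

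*Cdkn2c* (ENSMUSG00000028551, chr4:109660876-109667189, minus strand) encodes p18, an inhibitor found in many dividing and differentiating cells. It had 1643 counts and 51.01 FPKM (48.6 to 53.5) in control and 1125 counts and 46.62 FPKM (43.9 to 49.4) in *Myl3*-KO chondrocytes. The log2 ratio was -0.16 (-0.27 to -0.05), with an exact binomial p of 0.00402 and an adjusted p of 0.0146. Its implied length fell between its annotated transcripts of 1106 and 2471 bases, and the longer one would make up 52.95% in control and 50.14% in *Myl3*-KO chondrocytes. A length error of 0.1% moves these shares by 0.13 points, which leaves out counting error and error in dividing reads between transcripts. As for *Cdkn2a*, the annotation was not given in the sources used here and the split has no test.

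*Cdkn2d* (ENSMUSG00000096472, chr9:21288410-21291407, minus strand) encodes p19Ink4d, which is distinct from Arf. It had 424 counts and 17.35 FPKM (15.7 to 19.1) in control and 257 counts and 13.64 FPKM (12.0 to 15.4) in *Myl3*-KO chondrocytes. On the log2 scale its ratio was -0.34 (-0.57 to -0.11), with an exact binomial p of 0.00327 and an adjusted p of 0.0123. Of the 3613 genes within 2-fold of its mean CPM, 191 had a ratio at least as low.

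Within the INK4 family 3 of 6 pairs of genes had a ratio whose unadjusted interval left out 1. How often pairs of other genes do so was not computed. For single genes, 18.6% of all genes tested were higher and 16.8% lower in the read test. The *Cdkn2a* ratio was 1.22 times that of *Cdkn2d* (1.04 to 1.44), and the *Cdkn2b* ratio was 1.26 times that of *Cdkn2d* (1.06 to 1.49) and 1.11 times that of *Cdkn2c* (1.01 to 1.23). The other 3 pairs had intervals that held 1. *Cdkn2a* made up 75.4% of INK4 FPKM in control and 75.7% in *Myl3*-KO chondrocytes, *Cdkn2b* 15.3% and 15.8%, *Cdkn2c* 6.94% and 6.56%, and *Cdkn2d* 2.36% and 1.92%. All 7 inhibitors together were at 798.2 FPKM in control and 776.5 FPKM in *Myl3*-KO chondrocytes.

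The genes around the 10 were described from 10 lists of the same pathway, with 103 genes tested. Of these 17 were higher and 31 were lower in the read test, and the median log2 ratio was -0.07, against 0.02 over all genes tested. These shares, 16.5% and 30.1%, stand beside 18.6% higher and 16.8% lower over all genes tested, the background for each list below. With edgeR's exact test at an assumed coefficient of variation of 0.1, tried after seeing the data, 1 of the 103 (*Egr1*) was higher and 0 were lower. The 8 genes of the list of G1 kinases and their activating and chaperone genes had a median of -0.16, with 5 lower and 0 higher. *Cdk4*, the partner of D cyclins, had 15681 counts in control and 11087 in *Myl3*-KO chondrocytes, a log2 ratio of -0.11 (-0.15 to -0.08). *Cdk6*, the other partner, was lower, at -0.19 (-0.32 to -0.06), *Cdk2* at -0.23 (-0.33 to -0.13), and *Cdk7* of the Cdk-activating kinase at -0.27 (-0.39 to -0.15). The fifth gene that was lower was no kinase gene but the chaperone gene *Cdc37* at -0.12, named after its value was seen.

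Among substrates and effectors of these kinases, 2 genes were higher and 1 was lower. *Rb1*, the retinoblastoma gene, had 136 counts in control and 115 in *Myl3*-KO chondrocytes, a log2 ratio of 0.14 (-0.23 to 0.51), and its relative *Rbl2*, the pocket protein of resting cells, was higher by 0.27 (0.13 to 0.42), the only one of 3 to pass. Of 10 E2F and DP factors *Tfdp2* was higher by 0.21 and *Tfdp1* lower, at -0.24, with a list median of -0.05.

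Of the later cyclins all 5 passed the read test downward, against 16.8% of all genes, with a median log2 ratio of -0.33. None of the 5 reached 1.5-fold, and 0 were lower by edgeR's exact test at a coefficient of variation of 0.1. *Ccne2*, a cyclin of the G1/S step, went from 2146 counts to 1101, a log2 ratio of -0.58 (-0.68 to -0.47). The mitotic cyclin gene *Ccnb1* was lower, at -0.48 (-0.55 to -0.41), and the S phase cyclin gene *Ccna2* at -0.33 (-0.40 to -0.27). *Ccne1* at -0.27 and *Ccnb2* at -0.24, named after their values were seen, completed the list. Among 13 E2F target genes of DNA replication 9 were lower and 0 higher, with a median of -0.18, and none reached 1.5-fold. The nucleotide synthesis genes *Tyms* and *Tk1* were at -0.53 (-0.64 to -0.42) and -0.47 (-0.57 to -0.37).

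**Figure D4:**
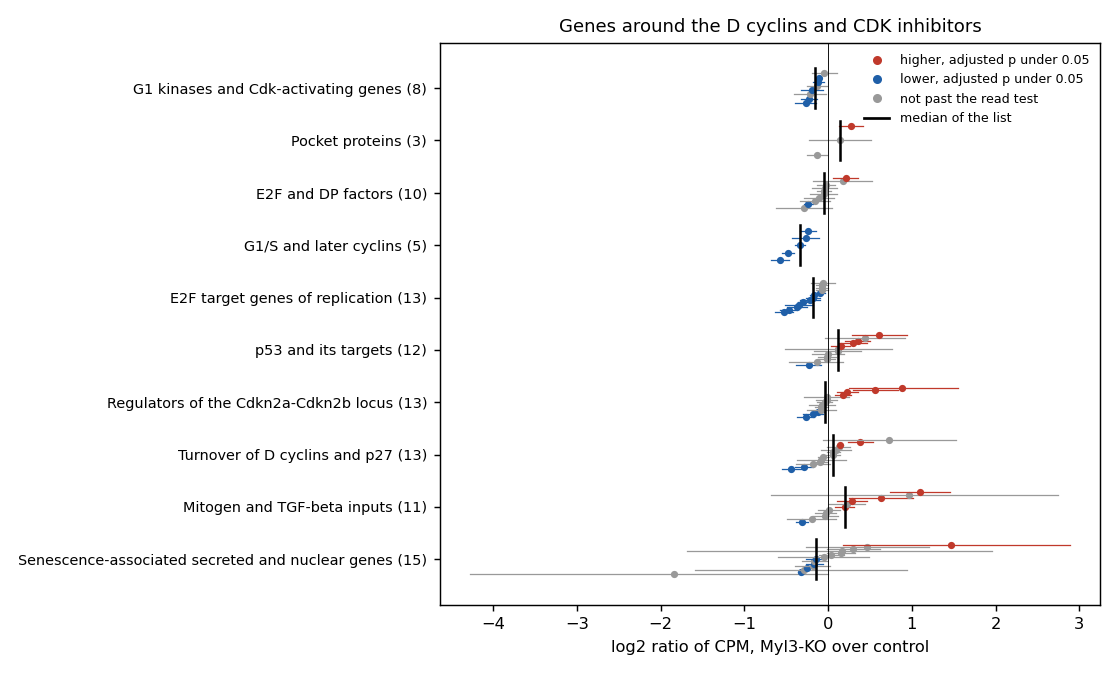
Log2 ratio of CPM, *Myl3*-KO over control, for each gene tested in 10 pathway lists (number tested in brackets), with 95% Clopper-Pearson counting intervals as lines and list medians as black bars; red and blue mark genes higher and lower at an adjusted p under 0.05. The later cyclins all lie below 0 with a median of -0.33, and the mitogen and TGF-beta inputs have the highest median, at 0.20.

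For the upstream side of *Cdkn1a*, *Trp53*, which encodes p53, had 579 counts in control and 545 in *Myl3*-KO chondrocytes, a log2 ratio of 0.30 (0.13 to 0.47). Of 12 genes in the p53 list 4 were higher and 1 lower, with a median of 0.12. The stress gene *Gadd45a* was at 0.61 (0.29 to 0.94) and *Trp53inp1*, a cofactor of p53, at 0.35 (0.21 to 0.50), and *Sesn1* at 0.15, named after its value was seen like *Ets2*, *Smad3* and *Il6* further on, was the fourth. The death effector gene *Bax* was lower, at -0.23 (-0.38 to -0.09). *Mdm2*, whose product degrades p53 and is held back by Arf, had 1714 and 1297 counts, a log2 ratio of -0.02 (-0.12 to 0.09).

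Regulators of the *Cdkn2a*-*Cdkn2b* locus, mostly Polycomb genes, split in both directions, with 4 of 13 higher, 3 lower and a median of -0.04. The Polycomb reader *Cbx7* went from 36 counts to 51, a log2 ratio of 0.89 (0.24 to 1.55), and *Ring1* and *Cbx2* were higher by 0.57 (0.29 to 0.84) and 0.23 (0.11 to 0.35). *Ets2*, a Ras-responsive factor gene, was at 0.17. *Suz12*, of the methylating Polycomb complex, was lower, at -0.27 (-0.37 to -0.17), and *Rnf2* and *Bmi1*, of the complex that marks H2A, at -0.18 (-0.29 to -0.06) and -0.13 (-0.21 to -0.05).

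Of 13 genes for the turnover of D cyclins and p27, 2 were higher and 2 lower, with a median of 0.06. *Skp2*, the ubiquitin ligase subunit that targets p27, was at -0.29 (-0.40 to -0.18) and its cofactor *Cks1b* at -0.44 (-0.55 to -0.33). *Rnf123*, another p27 ligase gene, was at 0.39 (0.23 to 0.54) and the ligase adaptor gene *Ddb1* at 0.14 (0.11 to 0.17).

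Inputs from mitogens and TGF-beta, which reach *Ccnd1*, *Cdkn1a* and *Cdkn2b*, held 4 higher and 1 lower of 11, with a median of 0.20. The immediate early gene *Egr1* went from 108 counts to 177, 2.14-fold (0.75 to 1.46 on the log2 scale). *Klf4* was at 0.63 (0.25 to 1.01), *Foxo4* at 0.29 (0.10 to 0.47) and *Smad3*, which carries the TGF-beta signal, at 0.20. *Myc*, a repressor of *Cdkn1a* and *Cdkn2b*, was lower, at -0.31 (-0.38 to -0.24). Of the senescence list 15 of 20 genes could be tested, with 1 higher, 4 lower and a median of -0.15. The list mixes secreted and nuclear genes, and the study reports less nuclear HMGB1 protein where its senescence markers rose. So the count and the median of this list have no single direction with senescence. *Igfbp3*, a secreted binding protein, was at -0.32 (-0.36 to -0.28), and the nuclear genes *Hmgb1* and *Lmnb1* were at -0.25 (-0.28 to -0.22) and -0.16 (-0.27 to -0.06). *Il6*, a secreted cytokine gene with 8 and 17 counts, was the one higher, at 1.47 (0.18 to 2.89). The Notch target *Hes1*, which is in none of these lists, had 21 counts in control and 77 in *Myl3*-KO chondrocytes, a log2 ratio of 2.26 (1.55 to 3.03).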

How the data were processed

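Poly(A) RNA of 1 control and 1 *Myl3*-KO culture was made into libraries with a SMARTER mRNA-Seq kit, per the labels. The study's methods do not name this kit. They describe mRNA taken with oligo beads, fragmented and copied with random primers before adapters were joined. The authors deposited 1 table with an expected count (estimated read number) and an FPKM value per gene and library; GRCm38 (mm10) is named in the submitters' processing notes, and the aligner, counter and annotation were not given in the sources used here. The column named NC was read as control because the other is named KO.

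CPM was computed from the expected counts over each library's own sum. A gene was tested if its 2 libraries held at least 10 counts in all, by a two-sided exact binomial test on rounded counts (scipy 1.17.1), with Benjamini-Hochberg adjustment and a threshold of 0.05. Alternatives used edgeR 4.0.16 and DESeq2 1.42.0 in R 4.3.3: other scalings, filters and fold limits, and assumed coefficients of variation of 0.1, 0.2 and 0.4. A floor of 3 counts was 0.17 CPM in control and 0.223 CPM in *Myl3*-KO chondrocytes. Gene positions and transcripts came from GENCODE M21. Scripts were tested on simulated data. Members and lists were chosen with earlier results of these data known. Named genes were the 10 members, *Cdk4*, *Cdk6*, *Cdk2*, *Rb1*, *Trp53*, *Mdm2*, *Myl3* and *Hes1*, and up to 3 per list and direction with at least 50 counts and the largest ratio past the test. Marker lists of chondrocytes, fibroblasts and muscle were read for cell identity. Some genes that this rule names are not reported here.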

Additional observations from a re-analysis of the deposited data

How the results depend on the processing

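No leaving out of replicates and no paired analysis was possible because each genotype had 1 library. Under 10 other settings per gene no direction changed, except that *Cdkn2b* (-0.02 to 0.02) changed sign in 1 of 10 without being called. With a 2-fold limit 1 of the 10 genes was higher in place of 2, and with a limit of 0.322 on the log2 scale 2 were lower in place of 0. When edgeR's exact test assumed a coefficient of variation between cultures, of 0.1, 1 gene was higher (*Ccnd1*, adjusted p 0.0117) and 0 were lower in place of 3; with 0.2 or 0.4 there were 0 higher and 0 lower. Over all genes the calls were 41 higher and 20 lower with 0.1 and 3 and 1 with 0.2, against 2307 and 2090 by reads alone. *Ccnd1* stayed between 1.05 and 1.09 under these settings, and *Ccnd3* was at -0.44 after correction for GC content and length. *Cdkn2a* was lower at an adjusted p of 0.0281 with TMM and 0.0323 with DESeq2 size factors. Summing *Ccnd1* with LTO1, chosen after seeing the data, gave 0.57. Depth limits *Ccnd2* and *Cdkn1a*, at 27 and 22 control counts.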
